A study of Mus musculus with 12 samples.

Results

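A set of 40 genes of S phase and DNA replication was followed in fibroblasts cultured from the hindlimb muscles of neonatal C57BL/10 wild-type mice and treated with aldosterone, spironolactone or vehicle. The 40 genes were taken by symbol from a fixed list, each symbol was found once in every deposited table, and all 40 were measured among 27319 genes in the table of aldosterone and vehicle, 27631 in that of aldosterone and spironolactone and 27598 in that of spironolactone and vehicle. Poly(A) RNA was sequenced from 12 libraries, 4 for each treatment. The vehicle group received DMSO, the aldosterone group 1 µM aldosterone, an agonist of the mineralocorticoid receptor, and the spironolactone group 1 µM spironolactone, an antagonist of that receptor, each for 48 hours. All groups were wild-type primary cells from mice at postnatal day 3, kept in medium with charcoal-stripped serum, which is depleted of steroids, from 24 hours before treatment. Only 2 mice were used, with 2 replicate plates per mouse and treatment, so the 4 libraries of a treatment came from 2 animals. P-values describe the spread between these libraries rather than between animals.

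A cell copies its genome once per division. Origins of replication are licensed in G1 phase by loading the MCM helicase, the helicase is switched on at the start of S phase, and polymerases then copy both strands behind it while nucleotides and new histones are supplied. Many of the genes involved are transcribed as cells pass from G1 into S phase under the E2F transcription factors, so their summed RNA level in a culture is widely used as a marker of cycling cells. Bulk RNA cannot tell fewer cells in S phase from less RNA of these genes in each cell. From the RNA of this experiment, the study reported by gene set enrichment that aldosterone suppressed sets related to proliferation, among others. In a separate EdU assay of neonatal wild-type fibroblasts, the study reported no significant difference in proliferation between vehicle and aldosterone. How that assay relates to the RNA of these libraries was not tested.

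Values are gene read counts divided by a size factor for each library, here called normalized reads. Libraries are named by a letter for the treatment (V, A or S), the sample number and the biological replicate number of the labels, as V1_1 or A2_2. Each pair of treatments was compared within its own table with limma on log2(value + 1), the sample number entering as a block because libraries that share it deviated together. A fold change is therefore on that log2 scale, and a gene was called where its p, adjusted by Benjamini-Hochberg over all genes of the table, did not exceed 0.05. Members were arranged in 7 groups by their main role.

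The libraries held 19136923 to 30219185 reads on genes, with a median of 23833379.5 and overlapping ranges in the 3 treatments. The fibroblast markers Col1a1, Col1a2, Dcn, Pdgfra and Thy1 summed to between 904083 and 995376 normalized reads in the vehicle libraries and to between 731736 and 837569 with aldosterone. Nearly all of these sums came from Col1a1 and Col1a2, with little from Dcn, Pdgfra and Thy1. Of these 5 markers 4 were called lower and Pdgfra was called higher, and without the block the lower calls were lost (adjusted p = 0.0527 for Col1a1, 0.327 for Col1a2, 0.21 for Dcn and 0.367 for Thy1). The sums of the endothelial markers were 477 to 539 in the vehicle libraries and 687 to 765 in the aldosterone libraries, those of the macrophage markers 123 to 142 and 145 to 189, those of the Schwann cell markers 240 to 323 and 314 to 453, those of the mural cell markers 7998 to 10714 and 6191 to 9581, and those of the myogenic markers 67.6 to 137 and 61.2 to 113. Among those markers Kdr, Tek, Cd14 and S100b were called higher, Cspg4 was called lower and no myogenic marker was called. Of 5 endothelial markers 1 was below 0, at a log2 fold change of -0.95, and it was not called. Of 5 macrophage markers measured there 2 were below 0, the lowest at -0.60, and neither was called. Cspg4 made up nearly all of the mural cell sums. Tek and Cspg4 were not called without the block (adjusted p = 0.0694 and 0.102). Pax7 and Ptprc averaged 0 in the aldosterone libraries and below 1 in the vehicle libraries. The part of these marker differences in the results below was not tested.

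With aldosterone 28 of the 40 members fell against vehicle, 2 rose and 10 did not pass the test. Of all genes in that comparison, 8.02% were called lower and 8.68% higher. A separate fit held only the 15245 genes that averaged 10 normalized reads or more, which include all members, and adjusted p over those genes. It called 15.3% lower and 15.9% higher, and the calls of all 40 members were the same in it. The median log2 fold change of the members was -0.40, beside -0.01 for all genes tested. The changes were shallow: only Cdc6 passed the study's additional threshold of a log2 fold change of at least 1 in size, which 0.955% of all genes passed in the lower direction. In 28 members every aldosterone library lay below every vehicle library, an arrangement found in 6.9% of all genes. These 28 are not the 28 called lower: Gins2 was called although its groups overlapped, and Casp8ap2 did not overlap although it was not called. Leaving the sample number out of the fit gave 27 members called lower, without Gins2, and none called higher, when 4.74% of all genes were called lower and 5.68% higher.

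**Figure D1:**
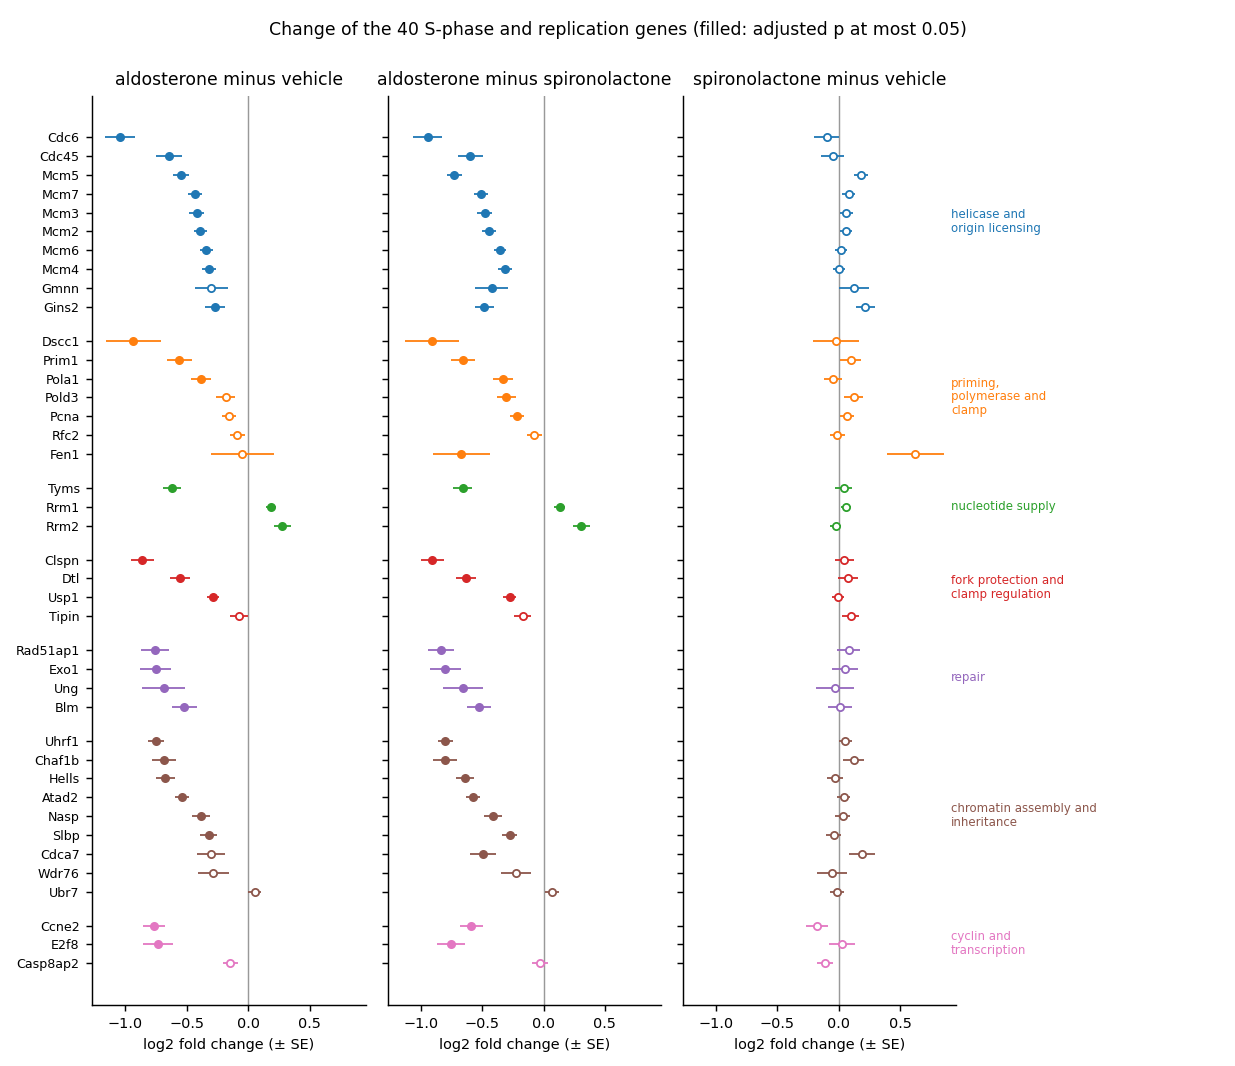
Log2 fold change with its standard error (horizontal axis) of each of the 40 genes (vertical axis, in 7 role groups by colour) for the 3 pairs of treatments; filled points have an adjusted p of at most 0.05. In the left and middle panels most points lie below 0 and Rrm1 and Rrm2 lie above it, and in the right panel no point is filled.

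The promoters of several members carry the letters that E2F factors bind, and a few are shown. Whether these letters had a part in the changes with aldosterone was not tested. Promoter sequences of RefSeq (GRCm38.p6, a different build from that of the count tables) were matched by symbol for 30 of the 40 members, with 34 promoters between them, and the 250 bases before the annotated start were searched on both strands. The letters searched were TTTCCCGC, TTTCGCGC, TTTGCCGC and TTTGGCGC. They were found in 10 of the 34 member promoters (29.4%) and in 1.86% of all 32851 promoters of the table. No entry was matched for Mcm4, Gins2, Gmnn, Rfc2, Dscc1, Tipin, Usp1, Exo1, Atad2 and Ccne2. The stretch around the match is printed 5′ to 3′ on the strand of the gene with the matching letters in capitals. In Mcm5 the matches of both strands overlap, and Casp8ap2 is shown as a member with a match that was not called.
Cdc6, chr11:98907983-98908050, plus strand: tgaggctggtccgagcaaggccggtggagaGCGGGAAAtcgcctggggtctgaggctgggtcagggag
Mcm5, chr8:75109326-75109397, plus strand: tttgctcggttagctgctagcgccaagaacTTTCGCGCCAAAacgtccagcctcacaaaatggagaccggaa
Pola1, chrX:93632256-93632323, minus strand: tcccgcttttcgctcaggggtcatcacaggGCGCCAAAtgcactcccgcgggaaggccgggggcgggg
Dtl, chr1:191575545-191575582, minus strand: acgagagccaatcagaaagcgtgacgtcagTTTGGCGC
Uhrf1, chr17:56304098-56304165, plus strand: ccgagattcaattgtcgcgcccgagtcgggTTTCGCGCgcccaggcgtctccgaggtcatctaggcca
Hells, chr19:38930898-38930965, plus strand: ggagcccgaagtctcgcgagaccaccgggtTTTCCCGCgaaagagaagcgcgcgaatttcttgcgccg
Casp8ap2, chr4:32615264-32615331, plus strand: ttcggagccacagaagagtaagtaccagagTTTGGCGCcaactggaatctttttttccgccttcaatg

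The 10 members with a match were Cdc6, Mcm5, Mcm6, Mcm7, Pola1, Dtl, Uhrf1, Hells, Cdca7 and Casp8ap2. Of them 8 were called lower with aldosterone and none higher, with a median log2 fold change of -0.49. Of the 20 matched members without these letters 13 were called lower and 2 higher, with a median of -0.40. The difference between these groups of members was not tested. Member promoters were also richer in G and C, with a median of 59.4% against 52.4% for all promoters. The CCAAT box, searched as CCAAT on both strands, was found in 23 of the 34 member promoters (67.6%) and in 33.85% of all promoters. The cell cycle element searched as TTTGAA or TTCGAA was found in 20.6% of member promoters and in 17.1% of all promoters. Members with a CCAAT box had a median log2 fold change of -0.42 and those without one -0.62. For the cell cycle element the medians were -0.39 with and -0.52 without. Both splits ran the other way from that of the E2F letters, and neither was tested. A match describes the letters of the window and was not tested as a binding site in these cells.

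Helicase and origin licensing genes were called lower in 9 of 10 cases, none was called higher, and the group had a median log2 fold change of -0.40. Cdc6, which loads the MCM helicase at origins and lies on chromosome 11 from 98798627 to 98814766 in the files' coordinates, showed the deepest fall of all 40 members. Its normalized reads were 217, 226, 217 and 164 in the vehicle libraries and 102, 128, 85.6 and 84.8 in the aldosterone libraries. The highest aldosterone library remained below the lowest vehicle library, V2_2, which itself lay apart from the other vehicle libraries. The fitted log2 fold change was -1.04 (SE 0.12, adjusted p = 9.32e-08, limma), so the level fell by 51.5%.

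All 6 subunits of the MCM2-7 helicase, the motor that unwinds DNA at the fork, fell. Mcm5 showed the deepest change among them at -0.55 (SE 0.07, adjusted p = 1.39e-07), followed by Mcm7 at -0.43, Mcm3 at -0.42, Mcm2 at -0.39, Mcm6 at -0.34 and Mcm4 at -0.32. Mcm4 was the most abundant licensing gene per kilobase of gene length. Its normalized reads were 1429, 1301, 1255 and 1330 in the vehicle libraries and 1125, 1244, 950.2 and 972 in the aldosterone libraries (chromosome 16, 15441761 to 15455264). The groups did not overlap, with A1_2 just below V2_1, and sample number 2 held the lower aldosterone libraries. The fitted change of Mcm4 was -0.32 (SE 0.06, adjusted p = 9.6e-05). The helicase is activated by Cdc45 and the GINS complex. Cdc45 fell by 0.65 on the log2 scale, from a mean of 247 ± 22.1 (SD, n = 4) normalized reads to 158 ± 19.0 (n = 4). Gins2, a GINS subunit, had the smallest change among the members called lower at -0.27 (adjusted p = 0.0158), and the adjusted p was 0.0658 without the block. Gmnn, which encodes geminin, the inhibitor that prevents a second round of licensing, was at -0.30 with an SE of 0.13 and did not pass the test (adjusted p = 0.143).

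Of the 7 genes for priming, polymerases and the sliding clamp 3 were called lower and none higher, with a median log2 fold change of -0.18. Prim1, the catalytic primase subunit, was at -0.56 (adjusted p = 9.26e-05) and Pola1, the catalytic subunit of the polymerase that primase works with, at -0.39 (adjusted p = 6.04e-04). Dscc1, part of the complex that loads the clamp for sister chromatid cohesion, had the largest fall of the group and the lowest level of all members per kilobase. Its normalized reads were 53.7, 60.5, 59.8 and 69.8 in the vehicle libraries and 32.3, 35.6, 23.9 and 34.5 in the aldosterone libraries (chromosome 15, 54939495 to 54953887). No library of one group reached the other, although the low level left a wide error: the log2 fold change was -0.94 with an SE of 0.22 (adjusted p = 0.00239).

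Pcna, the sliding clamp that tethers polymerases to DNA and a common marker of proliferating cells, did not pass the test. Its normalized reads were 1307, 1238, 1234 and 1039 in the vehicle libraries and 1054, 1157, 1037 and 1064 in the aldosterone libraries (chromosome 2, 132091082 to 132095234). The low vehicle library V2_2 lay among the aldosterone libraries and the other vehicle libraries lay above them all. The log2 fold change was -0.16 with a 95% interval from -0.27 to -0.04 (adjusted p = 0.0625), and without V2_2 it was -0.22 (adjusted p = 0.0275). The tables also list a processed pseudogene named after Pcna on chromosome 19, so reads of the gene and its copy may have been divided between them. Pold3, a subunit of the lagging-strand polymerase, was at -0.18 (adjusted p = 0.12, and 0.0385 without V1_1), and Rfc2, a subunit of the main clamp loader, at -0.09 (adjusted p = 0.416). Fen1, the nuclease that trims lagging-strand flaps, was close to 0 at -0.05 with an SE of 0.26. It averaged only 33.7 ± 4.80 (SD, n = 4) normalized reads with vehicle and 33.1 ± 8.87 (n = 4) with aldosterone, its direction differed between the sample numbers, and it overlaps a noncoding gene on the opposite strand by 3253 bases.

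The genes of nucleotide supply moved in both directions. Tyms, which makes the thymidine precursor dTMP, was lower in every aldosterone library, with 513, 489, 498 and 474 normalized reads with vehicle and 323, 303, 318 and 338 with aldosterone (chromosome 5, 30263200 to 30278615). The lowest vehicle library was far above the highest aldosterone library, and the log2 fold change was -0.62 (SE 0.07, adjusted p = 6.41e-08). Rrm1 and Rrm2 encode the large and small subunits of ribonucleotide reductase, which makes deoxyribonucleotides, and they were the members called higher.

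Rrm1 stood at 3891, 3819, 3451 and 3365 normalized reads in the vehicle libraries and at 4530, 4650, 3773 and 3650 in the aldosterone libraries (chromosome 7, 102090902 to 102118978). Within each sample number both aldosterone libraries were above both vehicle libraries, while across sample numbers the groups overlapped. The log2 fold change was 0.19 (SE 0.04, adjusted p = 0.00131) and it was called in each of 8 fits that left out 1 library (adjusted p between 0.0101 and 0.0361). Without the block it was not called (adjusted p = 0.179). Rrm2, the most abundant member per kilobase, stood at 3418, 3348, 2010 and 2139 normalized reads with vehicle and at 5036, 4943, 2054 and 2080 with aldosterone (chromosome 12, 24758240 to 24764145). The libraries of sample number 1 were higher with aldosterone, and those of sample number 2 lay within the range of their vehicle libraries. The log2 fold change over both was 0.28 (SE 0.07, adjusted p = 0.00281). It was 0.56 in sample number 1 and -0.005 in sample number 2, and the interaction of treatment and sample number was -0.57 (adjusted p = 0.0337), which was not called with any 1 library left out. The call for Rrm2 was lost without the block (adjusted p = 0.628), in DESeq2 on the recovered reads (adjusted p = 0.0932), and in each of the 8 fits without 1 library (adjusted p between 0.0816 and 0.306).

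**Figure D2:**
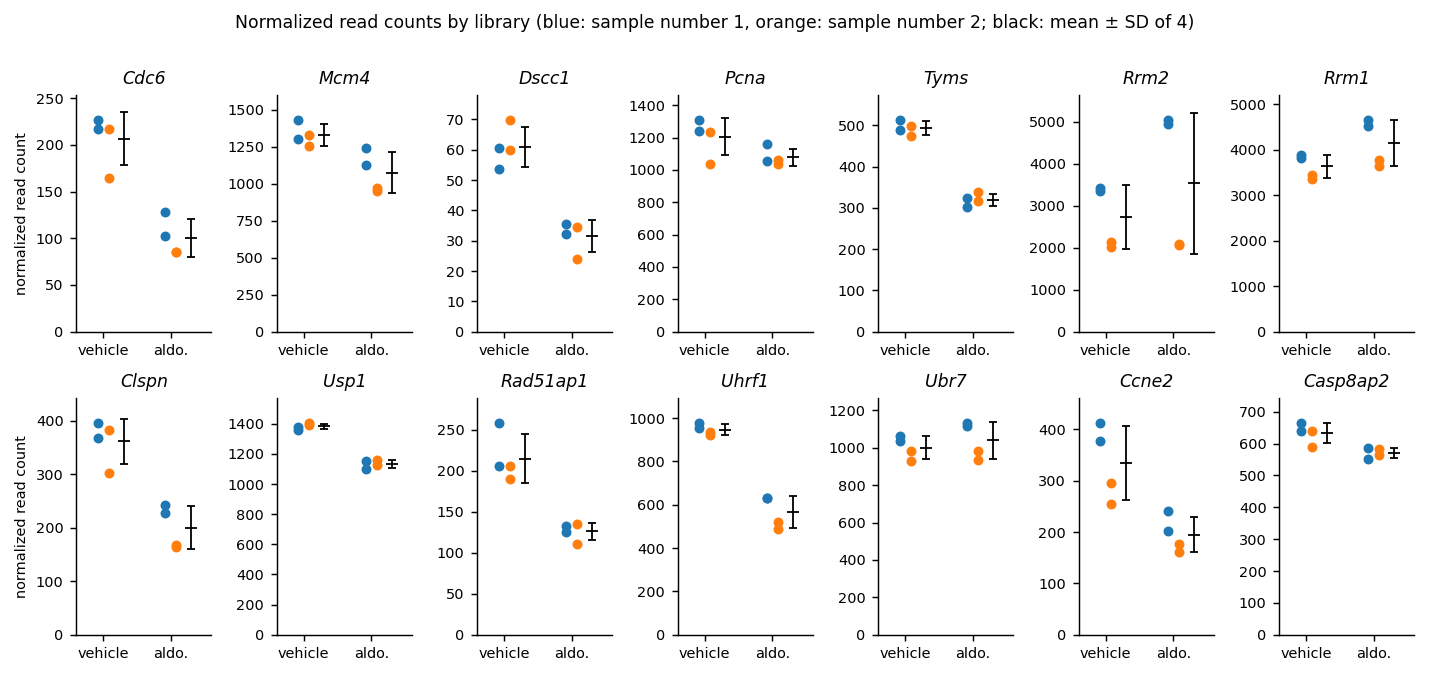
Normalized reads (vertical axis, from 0) in the 4 vehicle and 4 aldosterone libraries for 14 genes, with points coloured by sample number and black marks for the mean and SD of 4. Rrm2 differs between sample numbers and is higher with aldosterone in sample number 1, whereas Cdc6, Dscc1, Tyms, Clspn, Uhrf1 and Usp1 are lower with aldosterone in both.

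Among the genes that protect the fork and regulate the clamp, 3 of 4 were called lower, with a median of -0.42. Clspn encodes claspin, the adaptor that passes the stress signal of stalled forks to the checkpoint kinase Chk1. It stood at 395, 368, 301 and 383 normalized reads with vehicle and at 227, 242, 168 and 164 with aldosterone (chromosome 4, 126450728 to 126487696). All aldosterone libraries were below all vehicle libraries, and those of sample number 2 were the lowest. The log2 fold change was -0.86 (SE 0.09, adjusted p = 2.17e-08). Dtl, which targets Cdt1 for destruction during S phase, was at -0.56 (adjusted p = 7.11e-06). Usp1, the enzyme that removes ubiquitin from the clamp, had one of the smallest errors: 1362, 1377, 1392 and 1403 normalized reads with vehicle and 1099, 1151, 1129 and 1162 with aldosterone (chromosome 4, 98812047 to 98823780). The spread within either group was a small part of the gap, and the log2 fold change was -0.29 (SE 0.05, adjusted p = 5.03e-05). Tipin, a partner of the fork protection protein Timeless, was at -0.08 (adjusted p = 0.586).

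All 4 repair genes fell, with a median of -0.72. Rad51ap1, a factor of homologous recombination, was both the most changed and the most abundant of them per kilobase. Its normalized reads were 258, 206, 189 and 205 with vehicle and 125, 133, 134 and 111 with aldosterone (chromosome 6, 126900013 to 126916550). The groups were well separated in both sample numbers, and the log2 fold change was -0.76 (SE 0.11, adjusted p = 5.69e-06). Exo1, an exonuclease of mismatch and break repair, was at -0.75 (adjusted p = 2.81e-05), Ung, the uracil DNA glycosylase, at -0.69 (adjusted p = 0.00459) and Blm, the Bloom helicase, at -0.52 (adjusted p = 3.46e-04). The call for Ung was lost in 7 of the 8 fits without 1 library, V2_1 being the exception (adjusted p up to 0.144).

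Chromatin assembly and inheritance genes were called lower in 6 of 9 cases and higher in none, with a median of -0.38. Uhrf1, which recruits the maintenance methyltransferase Dnmt1 to freshly copied DNA, had the smallest adjusted p of all members. It stood at 976, 955, 937 and 920 normalized reads with vehicle and at 630, 630, 519 and 486 with aldosterone (chromosome 17, 56610321 to 56630486). The vehicle libraries varied little among themselves and every aldosterone library was far below them, and the log2 fold change was -0.75 (SE 0.06, adjusted p = 6.88e-11). Chaf1b, a subunit of the histone chaperone that follows the clamp, was at -0.68, Hells, a remodelling enzyme, at -0.67, and Atad2, a bromodomain ATPase, at -0.54. Nasp, a chaperone of histone H3 and H4, was at -0.38 and Slbp, which binds the stem-loop of histone mRNA, at -0.32. The calls of these last 2 genes were lost in 5 and 6 of the 8 fits without 1 library (adjusted p up to 0.0821 and 0.0771). Nasp was called only without V2_2, A1_1 or A2_2, and Slbp only without V2_1 or V2_2.

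The other 3 members of that group did not pass the test. Cdca7, the partner of Hells, was at -0.30 (adjusted p = 0.067) and Wdr76 at -0.28 (adjusted p = 0.149). Ubr7, a ubiquitin ligase and the most abundant gene of the group per kilobase, stood at 1064, 1033, 980 and 926 normalized reads with vehicle and at 1130, 1117, 981 and 932 with aldosterone (chromosome 12, 102724226 to 102743966). Its groups overlapped, with a log2 fold change of 0.05 and a 95% interval from -0.06 to 0.16 (adjusted p = 0.619).

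The last 3 members are the cyclin Ccne2, the transcription factor E2f8 and Casp8ap2, a nuclear protein needed for histone gene expression. Ccne2 encodes cyclin E2, which activates Cdk2 at the start of S phase. Its level was 378, 412, 295 and 255 normalized reads with vehicle and 202, 241, 161 and 177 with aldosterone (chromosome 4, 11191351 to 11204779). The groups did not overlap although the 2 sample numbers differed within each, and the log2 fold change was -0.77 (SE 0.09, adjusted p = 1.37e-07). Ccne2 overlaps Ints8 on the opposite strand by 5622 bases, and whether counting used the strand is not given in the sources used here. E2f8, an atypical E2F that represses S-phase genes, was at -0.73 (adjusted p = 3.2e-05). Casp8ap2 stood at 639, 664, 638 and 588 normalized reads with vehicle and at 553, 587, 564 and 582 with aldosterone (chromosome 4, 32615451 to 32653265). All aldosterone libraries were just below the lowest vehicle library, and at -0.14 the change did not pass the test (adjusted p = 0.13, and 0.0474 without V2_2).

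Leaving out each of the 8 libraries in turn, 24 of the 28 members were called lower in every fit, and Gins2, Ung, Nasp and Slbp were the exceptions. Gins2 was called only without V2_1 (adjusted p up to 0.12 otherwise). Among the 40 members, 18 overlap another listed gene, 18 of the overlapping genes being on the opposite strand and 3 on the same strand.

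**Figure D3:**
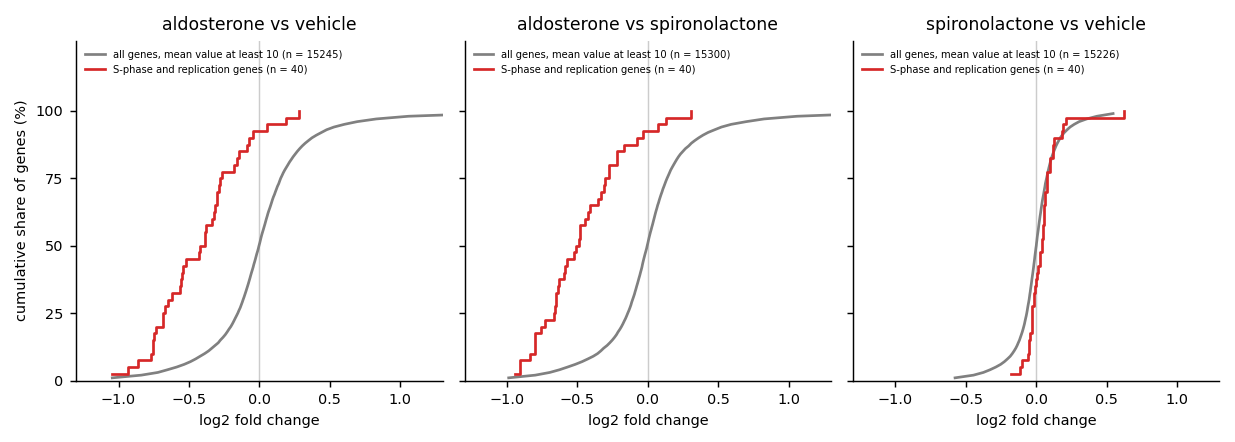
Cumulative share (vertical axis, percent) of log2 fold changes (horizontal axis) for the 40 genes in red and for all genes that averaged 10 normalized reads or more in grey, in each pair of treatments. The red curve lies left of the grey one in both panels with aldosterone, at medians of -0.40 and -0.50, and is close to it for spironolactone against vehicle, at a median of 0.04.

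Across the 40 members, the signed log2 fold change was on the whole lower where the level was lower, with Fen1 as an exception. Spearman's rho between the change and the level per kilobase in the vehicle libraries was 0.52, and between the change and gene length -0.28, over 40 genes that share their libraries and their depth. On the scale of normalized reads per kilobase, averaged over both groups, the order of levels ran from Rrm2 at 1129 through Pcna at 475.5, Rrm1 at 353, Usp1 at 337 and Mcm4 at 334.5 to Ung at 15.7, Fen1 at 13.8 and Dscc1 at 10.4.

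The change was seen in both sample numbers. Of the 40 members 36 had a lower mean log2 value with aldosterone in sample number 1 and in sample number 2, and Rrm1 and Ubr7 had a higher one in both. Rrm2 and Fen1 were higher in sample number 1 and lower in sample number 2. The median log2 fold change was -0.42 in sample number 1 and -0.46 in sample number 2, and Pearson's r between the 2 sets of changes was 0.78 over 40 genes measured in different libraries of the same table. Fitted with 2 libraries against 2, sample number 1 alone called none of the members and sample number 2 alone called 4 lower. Of all 27319 genes these fits called 2 and 339 lower, which limits what either can show by itself.

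**Figure D4:**
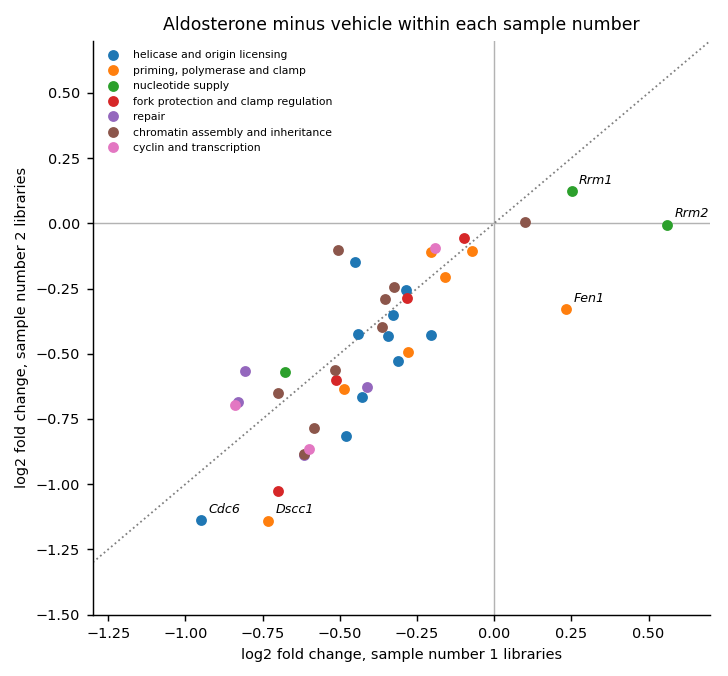
Log2 fold change of aldosterone against vehicle in the libraries of sample number 1 (horizontal axis) and sample number 2 (vertical axis) for the 40 genes, coloured by role, with the dotted line of equal change. Most genes lie at the lower left, with Cdc6 and Dscc1 lowest in sample number 2, and Rrm2 and Fen1 are right of 0 and at or below 0 on the vertical axis.

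The sample numbers themselves differed. Over the aldosterone and vehicle libraries 8 members were lower in sample number 2 and none higher, when 4.79% of all genes were lower and 3.98% higher. These were Rrm2 (-0.99, SE 0.07, adjusted p = 3.79e-12), Ccne2 (-0.45), Clspn (-0.33), Hells (-0.31), Mcm5 (-0.26), Rrm1 (-0.24), Mcm4 (-0.19) and Ubr7 (-0.19). With any 1 of the 8 libraries left out, between 2 and 4 members were called. The labels do not say what a sample number stands for, so a difference between animals and one between preparations cannot be told apart. An interaction of treatment and sample number was called in Rrm2 among the members and in 0.0146% of all genes.

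**Figure D5:**
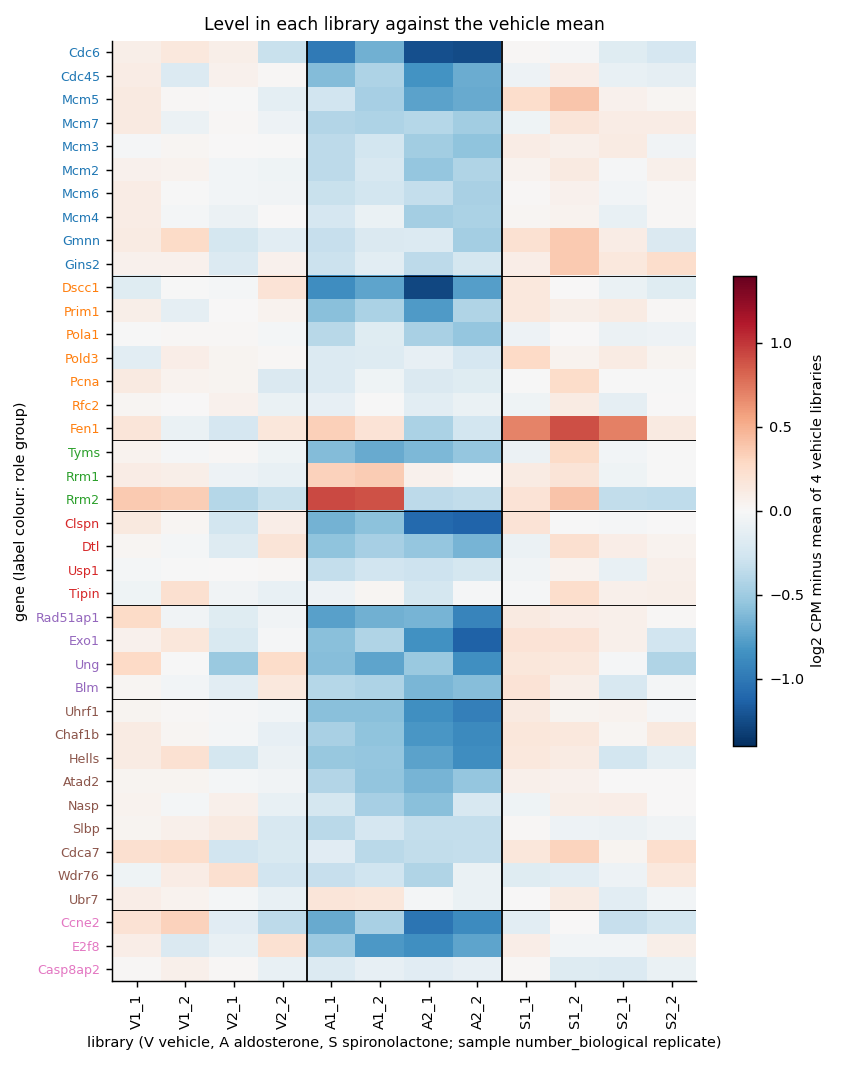
Log2 CPM (reads scaled to library size) minus the mean of the 4 vehicle libraries, by colour, for the 40 genes (rows, in role groups) in all 12 libraries (columns). The 4 aldosterone columns are blue for most genes, deepest for Cdc6 and Dscc1, and the row of Rrm2 is red in the aldosterone libraries of sample number 1.

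Against spironolactone the aldosterone libraries were lower in 33 of 40 members and higher in 2, when 6.8% of all genes were called lower and 7.58% higher. The median log2 fold change of the members was -0.50, beside -0.01 for all genes. This comparison uses the same aldosterone libraries as the one with vehicle and is not independent of it. In 30 members every aldosterone library was below every spironolactone library, as in 6.22% of all genes. The deepest changes were those of Cdc6 (-0.94, SE 0.12, adjusted p = 1.47e-07), Dscc1 (-0.91), Clspn (-0.91) and Rad51ap1 (-0.83), and no member reached a log2 fold change of 1 in size. Rrm1 (0.13, adjusted p = 0.0398) and Rrm2 (0.31, adjusted p = 0.00168) were called higher. Rrm2 was at 0.62 in sample number 1 and at -0.004 in sample number 2. Neither Rrm1 nor Rrm2 was called without the block (adjusted p = 0.426 and 0.605) or in any fit without 1 library. In those fits 26 to 30 members were called lower.

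The 5 members called lower against spironolactone and not against vehicle were Gmnn, Pcna, Pold3, Fen1 and Cdca7. Pcna was at -0.22 (adjusted p = 0.00602), with 1086, 1189, 1065 and 1093 normalized reads in the aldosterone libraries and 1234, 1471, 1230 and 1229 in the spironolactone libraries. The groups did not overlap, and S1_2 was the highest library. Cdca7 was at -0.49 (adjusted p = 7.82e-04), Pold3 at -0.30 (adjusted p = 0.00486), Gmnn at -0.42 (adjusted p = 0.0252) and Fen1 at -0.67 (adjusted p = 0.045), and without the block Pcna, Gmnn and Fen1 were not called (adjusted p = 0.0659, 0.0892 and 0.137). Rfc2, Tipin, Wdr76, Ubr7 and Casp8ap2 were called in no comparison. Whether any member's change differed between the comparisons was not tested.

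Between spironolactone and vehicle no member was called by limma, and none by edgeR or DESeq2 on the recovered reads, when 0.123% of all genes were called lower and 0.228% higher. The median log2 fold change of the members was 0.04. In all 4 of the 40 members had an unadjusted p below 0.05 in limma, beside 2127 of all 27598 genes. These members were Fen1 (0.62), Gins2 (0.21), Mcm5 (0.18) and Ccne2 (-0.18), and the smallest adjusted p was 0.242, for Mcm5. The values of each table are scaled on their own. In the table of spironolactone and vehicle, Cdc6 stood at 218, 228, 219 and 165 normalized reads with vehicle and at 209, 204, 183 and 175 with spironolactone. These groups overlapped, with a log2 fold change of -0.10 and a 95% interval from -0.31 to 0.11. Mcm5 stood at 920, 853, 844 and 770 with vehicle and at 1003, 1104, 882 and 864 with spironolactone, a change of 0.18 with an interval from 0.06 to 0.30. Within each sample number the spironolactone libraries were the higher ones, and across sample numbers the groups overlapped. Fen1, at 37.9, 31.5, 28.3 and 37.8 reads with vehicle and 55.6, 64.5, 56.1 and 37.0 with spironolactone, had the widest interval, from 0.15 to 1.10. Uhrf1 was at 0.05 with an interval from -0.06 to 0.16, and Rrm2 at -0.03 with one from -0.12 to 0.07. A missed threshold does not show that the treatments acted alike, and these intervals give the sizes that the data allow.

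Genes of the same processes outside the 40 were read from lists that were also chosen with earlier results of these data known. For aldosterone against vehicle, 8.02% of all genes were called lower and 8.68% higher. In the separate fit of genes that averaged 10 normalized reads or more these shares were 15.3% and 15.9%. The counts of the lists were not tested against these shares. Among origin recognition and firing genes, 8 of 16 were called lower with aldosterone against vehicle and none higher, led by Ticrr (-0.87, SE 0.12), which encodes treslin, an origin firing factor, and Recql4 (-0.87, SE 0.16), a helicase of the RecQ family. Without the block 5 genes of that list were called lower. Its median was -0.18, and all 6 subunits of the origin recognition complex, Orc1 to Orc6, missed the test. Of 27 other replisome subunits 17 were called lower and 2 higher, with a median of -0.29. Gins3 (-0.61) and Lig1, the ligase that joins lagging-strand fragments (-0.54), fell most, and Rnaseh2a, a subunit of ribonuclease H2 (0.37), and Pold4, a small polymerase subunit (0.36), rose.

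Of 12 other genes of nucleotide supply 4 were called lower and 2 higher, with a median of -0.04. Tk1, thymidine kinase, fell from a mean of 760.1 to 478 normalized reads (-0.67, SE 0.07). Samhd1, which breaks deoxyribonucleotides down, rose from 3087 to 4761 (0.63, SE 0.04, adjusted p = 7.47e-13), and Mthfd1, a folate enzyme, was called higher at 0.16 (adjusted p = 0.048, and 0.235 without the block). Among 15 members of the E2F and retinoblastoma families and their partners 6 were called lower and 3 higher. Mybl2 (-0.82) and Lin9 (-0.63) fell most, while E2f6, a repressor E2F (0.47), and Rbl2, the pocket protein p130 (0.30), had the largest rises. Of 7 S-phase cyclins and kinases with their regulators 6 were called lower, led by Fbxo5 (-0.74), an inhibitor of the anaphase-promoting complex, and Ccna2, cyclin A2, which fell from a mean of 1244 to 773 normalized reads (-0.69, SE 0.06).

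In the replication checkpoint list 8 of 15 genes were called lower, led by Fanci (-0.82) and Brca1 (-0.78), and Wee1, the kinase that holds Cdk1 inactive, was called higher (0.44). Of 10 further genes of chromatin assembly 7 were called lower and none higher, with Asf1b (-0.64), a histone chaperone, and Tonsl (-0.46) the most changed. The G2/M genes of the Seurat package, which mark the later part of the cycle, were called lower in 51 of 54 cases and higher in none, with a median of -0.59 beside the -0.40 of the S-phase members. That difference was not tested. Without the block, fewer genes of these lists were called lower with aldosterone against vehicle. The counts were 14 for the replisome, 3 for nucleotide supply, 5 for the E2F list and 4 for the cyclins and kinases. They were 7 for the checkpoint, 5 for chromatin assembly and 46 for the G2/M genes, when 4.74% of all genes were called lower. Between spironolactone and vehicle no gene of these lists was called.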

How the data were processed

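Gene counts were made by the authors from poly(A) RNA reads, and the submitters' processing notes list HISAT2 2.0.5, featureCounts 1.5.0-p3 and the build mm39, while the study's methods name mm9. Positions are those of the files. Of the 40 members 3 had a position in the files that overlapped their span in the mm9 annotation at hand and 4 their span in GRCm38.p6. The deposited tables, 1 per pair of treatments, hold counts divided by a size factor (signal values), together with the authors' own fold changes and p-values, which were not used. Whole reads were recovered from the smallest step in 22 of 24 columns, and the other 2 were taken from another table.

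Values of 8 libraries per table were tested with limma 3.58.1 in R 4.3.3 (log2(value + 1), variance trend, sample number as block). Same-numbered libraries of different treatments had correlated deviations from their group means (r from 0.12 to 0.277 over 24 pairs, against -0.286 to -0.141 otherwise), so the numbers in the labels pair the samples. Alternatives were edgeR 4.0.16, DESeq2 1.42.0, other scaling, pseudocounts and filters, no block, and leaving out each library.

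Values in every library are given for the largest fall and the highest level per kilobase in each role group, and for members called higher. Outside the 40, the 2 largest falls and 2 largest rises among called genes are named, except for an item that is not reported here. The members and lists were chosen with earlier results of these data known.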

Additional observations from a re-analysis of the deposited data

Results flagged for a closer look

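In 120 groups of 4 libraries (40 genes in 3 treatments), 5 held a library far from the other 3 by Dixon's ratio, and chance gives about 1 in 20 groups. Cdc6 was at 164.2 normalized reads in V2_2, with the other vehicle libraries between 217.2 and 226.4. Gins2 was at 335.6 in V2_1, with the others between 397.7 and 399.3. Tipin was at 624.5 in V1_2, with the others between 495.9 and 517.4. Pcna was at 1442 in the spironolactone library S1_2, with the others between 1205 and 1208. Clspn was at 415.6 in S1_1, with the others between 358.9 and 362.8. The change of Rrm2 with aldosterone differed between sample numbers, with an interaction of -0.57 on the log2 scale (adjusted p = 0.0337, limma, 8 libraries). Only these 2 sample numbers bear on that difference.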

How the results depend on the processing

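The direction of the median member change with aldosterone against vehicle was kept under every alternative, between -0.46 with sample number 2 alone and -0.39 with 1 library left out. The count of members called lower was 27 without the replicate block and 30 in edgeR, where Pcna and Cdca7 were added, and between 24 and 28 with 1 library left out. Against spironolactone it was 30 without the replicate block and 26 to 30 with 1 library left out. With the additional threshold of a log2 fold change of 1 in size it was 1 against vehicle and 0 against spironolactone. With sample number 1 alone it was 0 in both comparisons, and with sample number 2 alone 4 and 9, fits that hold fewer libraries. Against vehicle, these fits called 2 and 339 of all 27319 genes lower. Against spironolactone they called 0 and 388 of all 27631 genes lower. The count of members called higher was 2 in both comparisons. It became 0 without the replicate block, with the fold threshold or with either sample number alone, and 1 in DESeq2. With 1 library left out it was 1 against vehicle in each fit and 0 against spironolactone in each fit. The count of members lower in sample number 2 was 8 and fell to between 2 and 4 with 1 library left out. The interaction of Rrm2 was called in 1 gene, and in 0 with TMM scaling, with a pseudocount of 0.5 or with any 1 library left out. For these the cause was not tested.

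Fen1 ranged from -0.16 to 0.0896 with 1 library left out, above 0 without V2_2 or A2_1, and was at 0.23 in sample number 1 alone. Rrm2 was at -0.0046 in sample number 2 alone. Of the 40 members, the block changed the call of Gins2, Rrm1 and Rrm2 in the comparison with vehicle. At this depth the least abundant members, Dscc1 and Fen1, had standard errors of 0.22 and 0.26.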
